A study of Mus musculus with 12 samples.

Results

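The 10 genes described here encode transporters that move bile acids, conjugates and phospholipids across the hepatocyte membrane, and they were chosen by name from the 24062 gene symbols in the count tables. Of these, 6 (Abcb11, Abcc2, Abcb4, Abcb1a, Abcb1b and Atp8b1) act at the canalicular membrane that faces bile, 2 (Abcc3 and Abcc4) export across the basolateral membrane that faces blood, and 2 (Slc10a1 and Slco1b2) import from blood. The study asked what the nuclear receptor LRH-1, encoded by Nr5a2, does in the liver of adult mice. All animals were males of 14 weeks with the strain background mixed 129SvEV-C57BL/6, and all groups carried floxed Nr5a2 alleles. Libraries labelled knockout came from animals given AAV8-Cre, in which an adeno-associated viral capsid with liver tropism carries Cre, on the standard diet (SD, n = 3) or on the high-fat diet D12492 for 6 weeks (HFD, n = 2). Control libraries came from floxed animals without Cre, which had received an AAV8 vector with eGFP according to the series, on SD (n = 3) or HFD (n = 4). No source used here names the promoter that drives Cre, and cells that the vector does not reach keep an intact Nr5a2.

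Bile forms when hepatocytes pump bile salts into the canaliculus, and phospholipid follows to pack the salts into mixed micelles that spare the bile duct lining. Bile salts that return from the gut in portal blood are taken up again on the basolateral side, and exporters on that side let conjugates and bile salts escape to blood when the canalicular route is overloaded. Several of these genes are known targets of bile acid receptors such as FXR, and LRH-1 is known as a regulator of bile acid synthesis and of the corepressor SHP.

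The transporters took up a smaller share of the transcriptome in the libraries labelled knockout. Their summed counts made up 0.283% to 0.285% of all counts in the SD libraries labelled knockout and 0.419% to 0.443% in SD controls. On HFD they made up 0.211% and 0.240% in the libraries labelled knockout and 0.314% to 0.427% in controls. The phosphatidylcholine floppase gene Abcb4, the basolateral exporter gene Abcc3, the conjugate exporter gene Abcc2 and the bile acid importer gene Slc10a1 fell on both diets, and the drug exporter gene Abcb1b rose on both. The bile salt export pump gene Abcb11 fell on SD. Slco1b2, Abcc4, Abcb1a and Atp8b1 did not pass the test on either diet.

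The SD libraries held 2371167 to 3404570 counts each and the HFD libraries 7463792 to 10875478, so values on HFD rest on more counts and diet cannot be told apart from this gap in depth. All 10 members passed the filter on low counts, with library counts from 1 (Abcb1b in SD control 1) to 14457 (Slco1b2 in HFD control 2). The targeted gene did not check the labels: Nr5a2 stood at 94.7 to 100.1 CPM (each count scaled to its library size) in the libraries labelled SD knockout and 74.8 to 85.8 CPM in SD controls. For the libraries labelled HFD knockout it read 69.1 and 84.5 CPM, with 64.3 to 77.0 CPM in HFD controls. Which exons Cre removes is not stated, so each direction below rests on the labels. The SHP gene Nr0b2, a known target of LRH-1, had 0 counts in all 3 libraries labelled SD knockout and 107 over the SD controls, and 3 counts over the libraries labelled HFD knockout and 342 over the HFD controls. Whole liver was sequenced, so fewer cells of a type and less RNA per cell cannot be told apart. HFD control 1 stood apart from the other HFD controls on the second principal component (-2.58, against 9.07 to 15.1), towards the libraries labelled HFD knockout (-20.5 and -17.2).

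RefSeq (build GRCm38.p6) gave 10 promoter entries for 8 of the members. In 4 of these members the hexamer AGGTCA, to which many nuclear receptors bind, lay within the 250 bases before a start. The 4 windows are shown because these genes include the importer that fell most on HFD and the importer that did not pass, as well as the main canalicular exporters of bile salts and conjugates. They run 5′ to 3′ in lower case, and capitals mark the hexamer on either strand, together with an inverted repeat where that overlaps it.
Abcb11, chr2:69342617-69342866, minus strand: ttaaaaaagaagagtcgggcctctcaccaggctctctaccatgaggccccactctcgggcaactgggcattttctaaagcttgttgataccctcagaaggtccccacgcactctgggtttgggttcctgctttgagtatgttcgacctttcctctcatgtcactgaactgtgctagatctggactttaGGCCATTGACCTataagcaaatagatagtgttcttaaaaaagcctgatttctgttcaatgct
Abcc2, chr19:43782058-43782307, plus strand: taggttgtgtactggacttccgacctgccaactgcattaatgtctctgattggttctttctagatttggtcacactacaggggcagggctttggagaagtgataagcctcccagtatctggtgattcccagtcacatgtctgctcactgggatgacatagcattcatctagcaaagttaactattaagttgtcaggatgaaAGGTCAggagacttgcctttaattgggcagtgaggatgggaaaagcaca
Slc10a1, chr12:80968080-80968329, minus strand: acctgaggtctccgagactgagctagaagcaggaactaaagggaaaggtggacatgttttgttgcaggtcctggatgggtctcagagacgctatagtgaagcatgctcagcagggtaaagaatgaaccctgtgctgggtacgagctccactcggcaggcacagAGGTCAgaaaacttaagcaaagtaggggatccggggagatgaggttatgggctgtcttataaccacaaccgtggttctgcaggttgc
Slco1b2, chr6:141629268-141629517, plus strand: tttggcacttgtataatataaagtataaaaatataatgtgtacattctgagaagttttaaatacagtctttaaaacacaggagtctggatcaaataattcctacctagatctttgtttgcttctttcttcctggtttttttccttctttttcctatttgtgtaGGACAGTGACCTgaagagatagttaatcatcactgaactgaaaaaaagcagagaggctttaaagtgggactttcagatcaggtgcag
For Slc10a1, which has 2 listed starts, the window before the downstream start is shown. The window before its upstream start did not hold the hexamer.

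In Abcb11 and Slco1b2 the hexamer overlapped an inverted repeat, GGNCA and TGNCC with 1 base between them, the arrangement that FXR is known to bind with its partner RXR. This repeat began 62 bases before the start of Abcb11, where it read GGCCATTGACC, and 87 bases before the start of Slco1b2, where it read GGACAGTGACC. The repeat occurred in 0.575% and the hexamer in 14.0% of the 32851 promoter windows searched on both strands. The core of the LRH-1 element, CAAGGNCA, occurred in 5.53% of windows and in 0 of the 10 windows of the 8 members. This says only that these letters are not in these 250 bases. The antioxidant response core TGACNNNGC was found in the windows of Abcc2, as TGACATAGC, and Abcc4, against 10.2% of all windows. Abcb4, Abcb1a and Abcb1b held none of these 4 patterns.

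Levels between genes are compared per length, as CPM per kb of exon in the GENCODE annotation of GRCm38. The order was led by the importers in every group. In the SD libraries labelled knockout Slco1b2 stood at 235.4 to 241.5 CPM per kb and Slc10a1 at 160.0 to 172.5. In SD controls the ranges of these importers overlapped, with 267 to 338 for Slco1b2 and 317 to 373 for Slc10a1. On HFD the gap was wider in the libraries labelled knockout, with Slco1b2 at 191.0 and 260.6 CPM per kb and Slc10a1 at 72.3 and 75.4, while the HFD controls again overlapped (249.2 to 364.1 for Slco1b2 and 197.8 to 419.7 for Slc10a1). Slco1b2 was thus clear of Slc10a1 in both groups labelled knockout and in neither control group.

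Next in every group came Abcc2 and then Abcb11, the main canalicular exporters. Abcc2 had 82.8 to 95.7 CPM per kb in the libraries labelled SD knockout and 130.0 to 161.0 in SD controls. Abcb11 had 48.1 to 51.1 CPM per kb in the libraries labelled SD knockout and 67.8 to 90.1 in SD controls. Abcc3 followed Abcb11 in every group. Its mean was 9.89 CPM per kb in the libraries labelled SD knockout and 55.1 in SD controls, and 11.3 in the libraries labelled HFD knockout and 35.0 in HFD controls. In both groups labelled knockout its range overlapped that of Atp8b1, the next gene in order (5.07 to 14.3 and 7.15 to 8.83 CPM per kb on SD), and in both control groups the gene after it lay apart. Abcb4 stood above Atp8b1 in both control groups and below it in both groups labelled knockout, without overlap in any group. The order of these genes depends on the exon length used, 9383 bases for Abcb4 and 6719 for Atp8b1 over all annotated transcripts. In CPM their means were 53.1 and 52.2 in libraries labelled SD knockout, and 59.1 and 52.7 in those labelled HFD knockout. The lowest places were held by Abcb1a, Abcc4 and Abcb1b, all at 5.02 CPM per kb or less, and Abcb1b was last in every group.

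**Figure D1:**
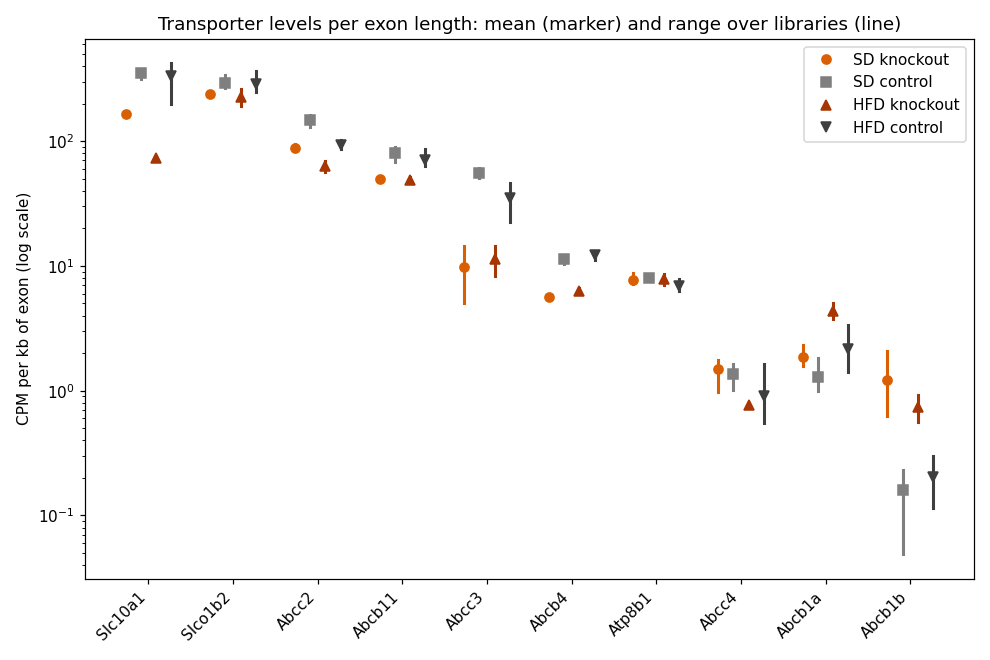
Mean level (marker) and range over libraries (line) of each transporter in CPM per kb of exon on a log axis, with genes ordered by their level in SD controls. Slc10a1 and Abcc3 sit well below their controls in the groups labelled knockout, while Atp8b1 stays within 6.34 to 8.83 CPM per kb in all libraries.

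Of the 10 transporters, 5 fell and 1 rose in the libraries labelled SD knockout by the edgeR quasi-likelihood test at an adjusted p under 0.05, where 2.94% of the 12015 genes tested fell and 1.44% rose (4.38% in all). Their median log2 fold change was -0.50, beside 0.00 over all genes. With scaling by total counts the split over all genes changed to 256 lower and 263 higher, beside 353 lower and 173 higher, and the count of transporters stayed at 5 lower and 1 higher. On HFD, 4 fell and 1 rose, where 1.66% of all genes fell and 1.04% rose (2.70% in all), with medians of -0.43 for the transporters and -0.01 for all genes. The same 5 genes that passed on HFD also passed on SD, each in the same direction. Without overlap between groups, 6 were lower and 1 higher on SD, where 12.3% and 10.3% of all genes were, and 5 were lower and 2 higher on HFD, where 11.9% and 10.3% were. The count of transporters that passed on HFD was 2 without HFD control 2, 3 without HFD control 4, 2 without either library labelled HFD knockout, 7 without HFD control 1, and 2 with only the HFD groups in the fit.

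**Figure D2:**
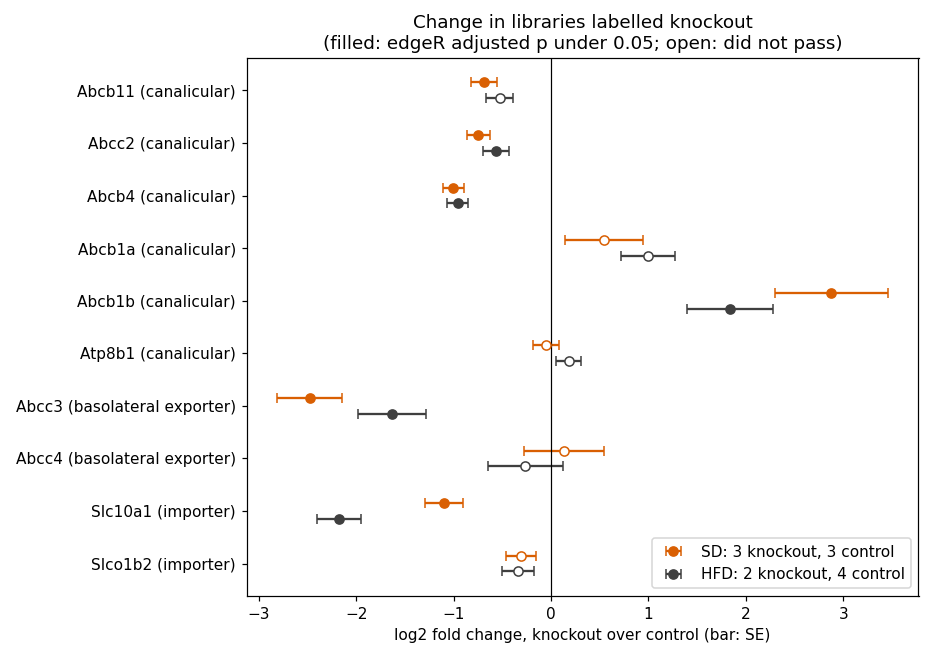
Log2 fold change of each transporter in libraries labelled knockout over controls, with its SE, on SD (upper marker of each pair) and HFD (lower marker). Filled markers passed at an edgeR adjusted p under 0.05; Abcb1b is the only filled marker right of 0, at 2.88 on SD and 1.84 on HFD.

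Abcb4 encodes MDR2, the floppase that delivers phosphatidylcholine to the outer leaflet of the canalicular membrane, and its loss in mice leaves bile without phospholipid. In the libraries labelled SD knockout it stood at 55.0, 53.2 and 51.2 CPM, against 111.7, 97.3 and 110.8 CPM in SD controls. In the libraries labelled HFD knockout it stood at 62.8 and 55.5 CPM, against 114.3, 123.8, 117.1 and 104.3 CPM in HFD controls. The groups were far apart on each diet, with close agreement among libraries of a group. It was 2.01-fold lower on SD (log2 fold change -1.004, SE 0.11, edgeR adjusted p = 0.000128) and 1.94-fold lower on HFD (-0.96, SE 0.11, adjusted p = 0.000234). The call held on both diets under each of the 13 alternatives and left-out libraries, with log2 fold changes of -1.07 to -0.91 on SD and -1.04 to -0.87 on HFD.

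Abcb11 encodes BSEP, the pump that drives bile salts into the canaliculus. It stood at 253.0, 263.0 and 247.7 CPM in libraries labelled SD knockout and 349, 464 and 416 CPM in SD controls. On HFD it stood at 239 and 265 CPM in libraries labelled HFD knockout and 327, 445, 333 and 349 CPM in HFD controls. The libraries labelled knockout lay below every control of their diet. The fall on SD passed (-0.69, SE 0.13, edgeR adjusted p = 0.00813), and the value on HFD did not (-0.53, SE 0.14, adjusted p = 0.0626). On HFD it passed with DESeq2 (adjusted p = 0.0167), with no filter on low counts (0.0230), without HFD control 1 (0.0330) and with the replicate block. It did not pass in the other 9 of the 13 alternatives and left-out libraries. Its log2 fold changes on HFD ran from -0.60 to -0.40 over these settings.

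Abcc2 encodes MRP2, which exports bilirubin glucuronides, glutathione conjugates and divalent bile acid conjugates into bile. Its levels were 816.6, 730.5 and 706.7 CPM in libraries labelled SD knockout and 1293, 1109 and 1374 CPM in SD controls. On HFD they were 595 and 481 CPM in libraries labelled HFD knockout and 758, 878, 798 and 744 CPM in HFD controls. No library labelled knockout reached a control of its diet. The fall was 1.68-fold on SD (-0.74, SE 0.12, edgeR adjusted p = 0.00244) and 1.48-fold on HFD (-0.56, SE 0.13, adjusted p = 0.0289). The HFD call ended without HFD control 2 (adjusted p = 0.0835), HFD control 3 (0.0596), HFD knockout 1 (0.0657) or HFD knockout 2 (0.244), and also with only the HFD groups in the fit (0.0921) or after thinning all libraries to the smallest total (0.0528).

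Abcb1b and Abcb1a encode the rodent forms of P-glycoprotein (MDR1), which exports drugs and other hydrophobic compounds. Abcb1b had 15, 19 and 48 counts in the libraries labelled SD knockout and 1, 4 and 6 in SD controls, which is 5.00, 7.61 and 16.7 CPM against 0.391, 1.61 and 1.83 CPM. It had 53 and 40 counts in the libraries labelled HFD knockout and 18, 12, 21 and 7 in HFD controls, or 7.36 and 4.46 CPM against 1.63, 1.49, 2.40 and 0.910 CPM. Every library labelled knockout was above every control, and the level stayed low. The rise was 7.35-fold on SD (2.88, SE 0.58, edgeR adjusted p = 0.00976) and 3.58-fold on HFD (1.84, SE 0.44, adjusted p = 0.0345). On SD the call ended without SD knockout 3, the library with the highest level (2.23, adjusted p = 0.0627). On HFD it ended without HFD control 2 (0.0872), HFD control 4 (0.0973), HFD knockout 1 (0.394) or HFD knockout 2 (0.0564), with only the HFD groups in the fit (0.0572) and after thinning all libraries to the smallest total (0.0791).

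Abcb1a did not pass on either diet. It had 8.999, 12.8 and 8.71 CPM in libraries labelled SD knockout and 5.47, 10.05 and 5.49 CPM in SD controls, with overlap between the groups (0.55, SE 0.40, edgeR adjusted p = 0.542). On HFD it had 27.5 and 20.5 CPM in the libraries labelled knockout and 18.4, 12.7, 7.67 and 8.71 CPM in controls, without overlap (1.00, SE 0.28, adjusted p = 0.0771). HFD control 1 was the highest control, and without it Abcb1a passed (1.32, adjusted p = 0.00443). It also passed on HFD with no filter on low counts (0.00994). In the other 11 of the 13 alternatives and left-out libraries Abcb1a did not pass on HFD. The paralogs share sequence: 16.3% of the 50-base windows of Abcb1a transcripts also occur in Abcb1b and 2.33% in Abcb4, and 11.1% of those of Abcb1b occur in Abcb1a. How multiply mapped reads were counted is not stated, so the division of counts between this pair is uncertain, while 1.36% of Abcb4 windows occur in Abcb1a. An unclassified transcript on the opposite strand covers 10.1% of the exonic bases of Abcb1a, and the strand setting is not stated either.

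Markers of other liver cells were summed to set beside the rise of Abcb1b. The summed level of 7 cholangiocyte markers was 81.7 to 219.7 CPM in libraries labelled SD knockout and 63.5 to 67.6 CPM in SD controls, without overlap. Spp1, which other cells can also express, made up most of this sum, at 109.9 ± 71.2 and 44.0 ± 1.89 CPM (mean ± s.d.), while the duct keratin gene Krt19 was at 0.588 ± 0.163 and 0.736 ± 0.422 CPM and Krt7 and Cftr were also under 1 CPM on average. On HFD it was 114 and 131 CPM in the libraries labelled knockout and 44.2 to 127 CPM in controls, with overlap. The 7 stellate markers summed to 420.4 to 460.7 CPM in libraries labelled SD knockout and 323 to 384 CPM in SD controls, and to 366 and 416 CPM and 249 to 372 CPM on HFD. The 6 endothelial markers (231 to 271 and 178 to 268 CPM on SD, 214 and 244 and 167 to 218 CPM on HFD) and the 6 measured Kupffer cell markers (209.7 to 277 and 198 to 306 CPM on SD, 252 and 266 and 150.2 to 360.5 CPM on HFD) overlapped on both diets. Of the tested markers in these 4 lists, 4, 7, 6 and 6 in that order, 0 passed on either diet by edgeR. The part of these cells in the change of Abcb1b was not tested. The 8 hepatocyte markers, albumin among them, summed to 102838 to 154799 CPM in libraries labelled SD knockout and 110548 to 140480 CPM in SD controls, and to 124798 to 171404 CPM in libraries labelled HFD knockout and 106886 to 110455 CPM in HFD controls. Of these markers Fgb, a fibrinogen chain gene, fell on SD (-0.71, edgeR adjusted p = 0.0390) and Ttr, the transthyretin gene, rose on HFD (0.64, adjusted p = 0.0116), and the HFD sums, mostly of albumin, did not overlap. The part of this difference in the transporter values was not tested.

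Atp8b1 encodes the aminophospholipid flippase FIC1, which keeps the canalicular membrane asymmetric. Its levels were 59.3, 48.0 and 49.1 CPM in libraries labelled SD knockout and 50.4, 56.3 and 55.5 CPM in SD controls. On HFD they were 58.4 and 47.1 CPM in the libraries labelled knockout and 52.8, 42.6, 45.8 and 44.5 CPM in controls. The groups overlapped on each diet. Its log2 fold changes were -0.05 (SE 0.13, edgeR adjusted p = 0.904) on SD and 0.18 (SE 0.13, adjusted p = 0.594) on HFD, and the sign on SD flipped with scaling by total counts.

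Abcc3 encodes MRP3, which exports glucuronides and some bile acids from hepatocytes to blood. Its levels were 81.7, 58.4 and 28.9 CPM in libraries labelled SD knockout and 287, 346 and 309 CPM in SD controls. In the libraries labelled HFD knockout they were 81.6 and 47.5 CPM, against 154, 261, 127 and 256 CPM in HFD controls. The highest library labelled knockout lay well below the lowest control on each diet. The fall was 5.56-fold on SD (-2.48, SE 0.34, edgeR adjusted p = 0.000634), the largest of the 10 genes there, and 3.10-fold on HFD (-1.63, SE 0.35, adjusted p = 0.0197). The HFD call ended without HFD control 2 (0.0540), HFD control 4 (0.0529), HFD knockout 1 (0.0615) or HFD knockout 2 (0.176), and with only the HFD groups in the fit (0.0551).

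Abcc4 encodes MRP4, the other basolateral exporter, which carries bile acids together with glutathione. It was a low gene, at 11.0, 11.2 and 6.27 CPM in libraries labelled SD knockout and 10.5, 9.24 and 6.41 CPM in SD controls. On HFD it had 5.00 and 4.80 CPM in the libraries labelled knockout and 10.5, 4.84, 4.12 and 3.51 CPM in controls, where HFD control 1 stood above the other libraries. The groups overlapped on each diet, and neither comparison passed (0.13, SE 0.41, edgeR adjusted p = 0.921 on SD, and -0.26, SE 0.39, adjusted p = 0.842 on HFD). The sign on HFD turned to 0.24 without HFD control 1.

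Slc10a1 encodes NTCP, the sodium-coupled importer that takes up most conjugated bile acids from portal blood. Its levels were 379, 352 and 353 CPM in libraries labelled SD knockout and 812, 820 and 698 CPM in SD controls. On HFD they were 166 and 159 CPM in the libraries labelled knockout and 435, 780, 923 and 794 CPM in controls. Libraries labelled knockout agreed closely within a diet, and even HFD control 1, the lowest control, stood above them all. The fall was 2.15-fold on SD (-1.10, SE 0.20, edgeR adjusted p = 0.00428) and 4.51-fold on HFD (-2.17, SE 0.23, adjusted p = 0.000133), the largest of the 10 genes on HFD. Both calls held under all 13 alternatives and left-out libraries, at -1.17 to -1.01 on SD and -2.35 to -2.03 on HFD.

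Slco1b2 encodes OATP1B2, the sodium-independent importer of unconjugated bile acids, bilirubin and drugs. It stood at 1190, 1165 and 1160 CPM in libraries labelled SD knockout and 1667, 1318 and 1376 CPM in SD controls, without overlap. On HFD it stood at 942 and 1285 CPM in the libraries labelled knockout and 1229, 1795, 1264 and 1336 CPM in controls, with overlap. Its differences were small and did not pass on SD (-0.31, SE 0.16, edgeR adjusted p = 0.324) or HFD (-0.34, SE 0.17, adjusted p = 0.390).

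**Figure D3:**
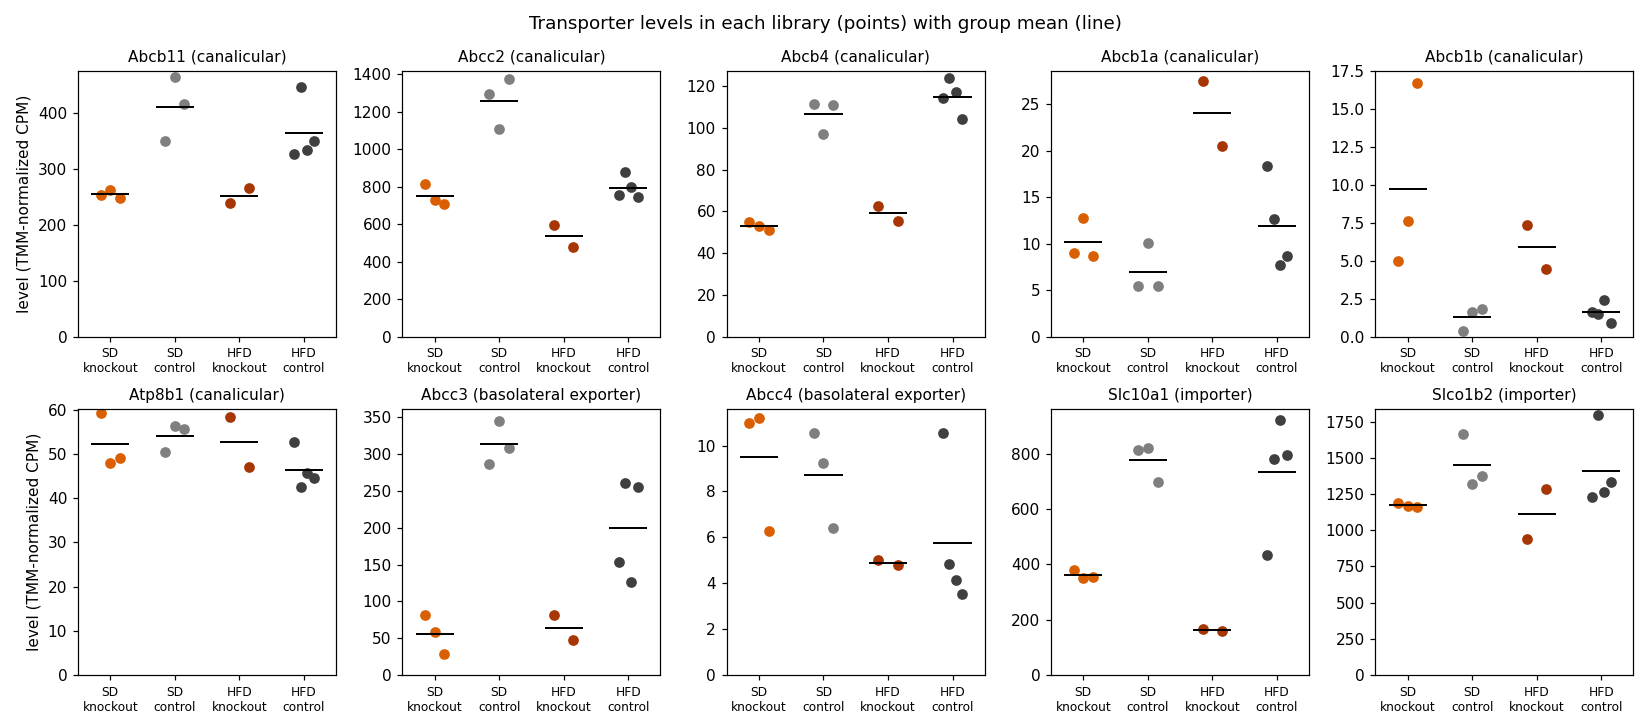
Level of each transporter in TMM-normalized CPM, with 1 point per library and a line at the group mean, for libraries labelled knockout and controls on SD and HFD. Abcb4, Abcc3 and Slc10a1 separate the groups on each diet, HFD control 1 is the lowest HFD control for Slc10a1 at 435 CPM, and Atp8b1 and Abcc4 overlap.

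By class, 3 of 6 canalicular genes fell and 1 rose on SD, where 2.94% and 1.44% of all genes did. On HFD 2 fell and 1 rose, where 1.66% and 1.04% of all genes did. The canalicular genes had median log2 fold changes of -0.37 on SD and -0.17 on HFD, beside 0 and -0.007 over all genes. In each of the basolateral pairs 1 of 2 fell on each diet. The exporter pair had median log2 fold changes of -1.17 on SD and -0.95 on HFD, and the importer pair -0.71 and -1.26. Each class held members that passed and members that did not, and differences between members were not tested.

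Ratios of counts within a library do not depend on the scaling between libraries and are given here as a description, without a test. The ratio of the importers, Slc10a1 over Slco1b2, was 0.302 to 0.319 in the libraries labelled SD knockout and 0.487 to 0.622 in SD controls. It was 0.124 and 0.176 in the libraries labelled HFD knockout and 0.354 to 0.730 in HFD controls. The balance of conjugate exporters, basolateral Abcc3 over canalicular Abcc2, was 0.0409 to 0.100 in the libraries labelled SD knockout and 0.222 to 0.312 in SD controls. On HFD it was 0.0988 and 0.137 in the libraries labelled knockout and 0.159 to 0.344 in controls. Both ratios separated the groups on each diet, and each holds a member that fell on both diets. Abcc3 over Slc10a1 was 0.0819 to 0.215 in the libraries labelled SD knockout and 0.354 to 0.443 in SD controls. On HFD Abcc3 over Slc10a1 was 0.299 and 0.492 in the libraries labelled knockout and 0.138 to 0.355 in controls, with overlap.

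Uptake against canalicular export of bile salts, Slc10a1 over Abcb11, was 1.34 to 1.5 in the libraries labelled SD knockout and 1.68 to 2.32 in SD controls. On HFD it was 0.6 and 0.693 in the libraries labelled knockout and 1.33 to 2.77 in controls. Abcb11 thus had more counts than Slc10a1 in both libraries labelled HFD knockout and fewer in the other 10. Counts depend on exon length, and per kb of exon Slc10a1 stayed above Abcb11 in both libraries labelled HFD knockout. Slc10a1 stood there at 72.3 and 75.4 CPM per kb, and Abcb11 at 46.5 and 51.5. Bile salt against phospholipid export, Abcb11 over Abcb4, was 4.60 to 4.94 in the libraries labelled SD knockout and 3.13 to 4.77 in SD controls, with overlap. It was 3.81 and 4.78 in the libraries labelled HFD knockout and 2.84 to 3.60 in HFD controls, without overlap. Abcc2 over Abcb11 hardly differed, at a mean log2 ratio of 1.56 in the libraries labelled SD knockout and 1.62 in SD controls, and 1.09 and 1.14 on HFD.

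**Figure D4:**
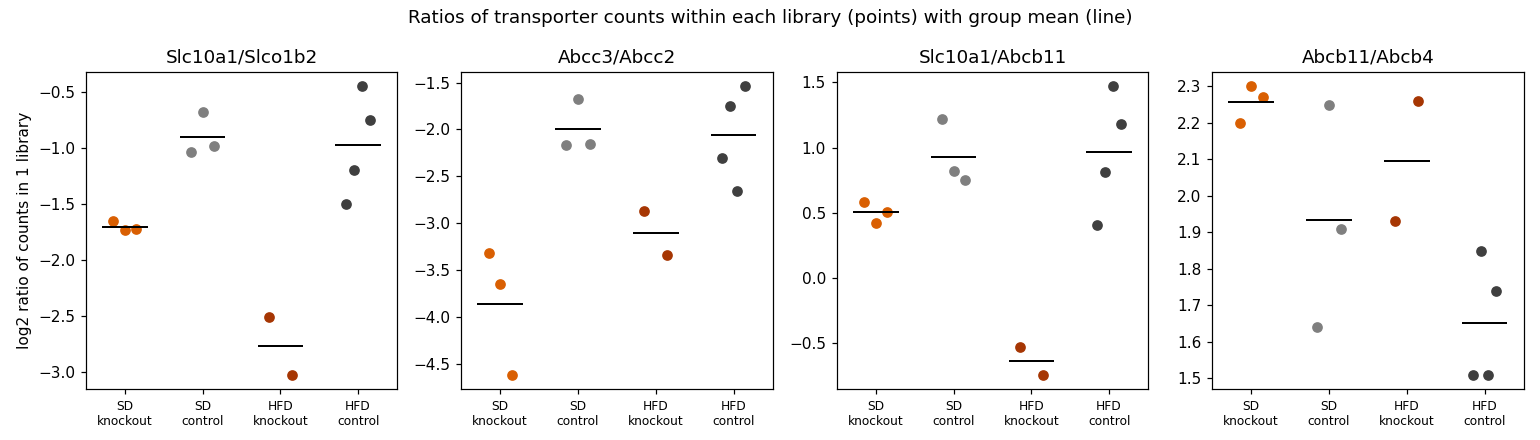
Log2 ratio of the counts of 2 transporters within each library (points) and the group mean (line). Slc10a1 over Slco1b2 and Abcc3 over Abcc2 are lower in all libraries labelled knockout than in any control of the same diet, and the mean of Slc10a1 over Abcb11 is -0.63 in the libraries labelled HFD knockout and 0.97 in HFD controls.

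The change in libraries labelled knockout was compared between diets as an interaction, which 0 of the 10 transporters and 0% of all genes passed by edgeR, with 911 genes at an unadjusted p under 0.05. DESeq2 also called 0 of the 10. Slc10a1 came nearest, with a log2 fold change on HFD that was lower than on SD by a difference of -1.07 (SE 0.28, unadjusted p = 0.00184, edgeR adjusted p = 0.374). Without HFD control 1 the difference was -1.25 and passed (adjusted p = 0.0179), and over all alternatives and left-out libraries the adjusted p ran from 0.0179 to 0.748. The differences were 0.85 (SE 0.46) for Abcc3 and -1.04 (SE 0.78) for Abcb1b, at adjusted p of 0.725 and 0.826. For Abcb4 the difference was 0.05 (SE 0.15), a value near 0 whose sign flipped with scaling by total counts.

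Diet was compared within controls and within libraries labelled knockout. In controls 1 of 10 passed, where 30.1% of all genes passed: Abcc2 was lower, at 794 ± 60.1 CPM on HFD and 1259 ± 136 CPM on SD (mean ± s.d., n = 4 and 3, log2 fold change -0.66, SE 0.11, edgeR adjusted p = 0.000334). Without HFD control 1 Abcc4 was also lower (-1.04, adjusted p = 0.0107), and without HFD control 3 Abcb1a was higher (0.96, adjusted p = 0.0374). By overlap alone, 2 were lower in controls (16.7% of all genes) and 0 higher (20.5%). Among libraries labelled knockout 3 of 10 passed, where 26.6% of all genes passed, and 2 were higher and 3 lower without overlap, where 28.2% and 24.5% of all genes were. Slc10a1 was lower on HFD, at 162 ± 4.85 CPM, against 361 ± 15.5 CPM on SD (n = 2 and 3, -1.15, SE 0.22, adjusted p = 0.00134), whereas its control means were 733 ± 209 and 776 ± 68.1 CPM. Abcc2 was lower (-0.48, SE 0.14, adjusted p = 0.0159) and Abcb1a higher (1.25, SE 0.34, adjusted p = 0.0136). Abcc2 lost this call without SD knockout 1 (0.0670) or HFD knockout 2 (0.174), and Abcb1a without SD knockout 1 (0.0510), SD knockout 3 (0.0544) or HFD knockout 1 (0.105). Diet cannot be told apart from the gaps in depth and in Rn45s share between the cohorts in any of these values.

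Likeness was measured as the root mean square difference between profiles of log2 CPM over the 12 libraries, each taken relative to the controls of the same diet. For Abcb4 the nearest of 8628 genes were Scarb1, the HDL receptor gene, at 0.124, and the lysophosphatidylglycerol acyltransferase gene Lpgat1, at 0.135, where the median gene was at 0.644. For Slc10a1 they were the transcription factor gene Atf5 (0.253) and the major urinary protein gene Mup3 (0.254), with the median gene at 1.06. Abcb11 and Abcc2 had the same nearest gene, Spast, which encodes spastin, at 0.111 and 0.122. Next came C8g for Abcb11 (0.112) and Klf15 for Abcc2 (0.125). Abcc3 lay nearest to the cytochrome P450 gene Cyp2c38 (0.377) and to Serpina6, which encodes corticosteroid-binding globulin (0.416), and Abcb1b to Itih5 (0.417) and Chic1 (0.461). These distances are larger than those of the genes nearest to Abcb4, but the median gene was also farther, at 1.49 for Abcc3 and 1.08 for Abcb1b. The median gene was at 0.453 for Abcb11 and 0.482 for Abcc2.

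Among 16 other hepatic bile and organic ion transporters, of which 14 were tested, 3 fell and 1 rose on SD, where 2.94% and 1.44% of all genes did, and 4 fell and 1 rose on HFD, where 1.66% and 1.04% did. The sterol exporter subunit gene Abcg8 was at 47.2 ± 3.76 CPM in libraries labelled SD knockout and 139.8 ± 30.8 CPM in SD controls (-1.57, edgeR adjusted p = 4.73e-05), and at 55.1 ± 7.63 and 109 ± 5.26 CPM on HFD (-0.99, adjusted p = 0.00212). Its partner Abcg5 fell on both diets as well (-1.82, adjusted p = 0.000269 on SD, and -1.06, adjusted p = 0.0124 on HFD). Slco1a4, an organic anion importer gene, rose on both, at 247 ± 64.2 CPM in libraries labelled SD knockout and 112 ± 19.4 CPM in SD controls (1.14, adjusted p = 0.0237), and at 186 ± 16.6 and 81.6 ± 34.5 CPM on HFD (1.18, adjusted p = 0.0235). Slco1a1, another importer gene of this family, fell on HFD (195 ± 58.0 against 385 ± 76.0 CPM, -0.98, adjusted p = 0.0124) and not on SD (696 ± 23.1 against 698 ± 96.8 CPM). The difference of its change between diets did not pass (-0.98, SE 0.26, edgeR adjusted p = 0.374). The median over the tested genes of this list was -0.01 on SD and 0.03 on HFD.

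Of 9 scaffold and trafficking genes that place transporters in the canalicular membrane, 0 passed on either diet. Of all genes 4.38% passed on SD and 2.70% on HFD, so 0 of 9 is near that share. Without overlap, 3 were lower and 0 higher on SD, where 12.3% and 10.3% of all genes were. On HFD 0 were lower and 2 higher, where 11.9% and 10.3% of all genes were. The 9 genes had log2 fold changes of -0.46 to 0.39 on SD and -0.20 to 0.39 on HFD. They included Tmem30a, the partner subunit that Atp8b1 needs (0.39, edgeR adjusted p = 0.256 on SD), and Rdx, which encodes radixin, the anchor of MRP2 (-0.24, adjusted p = 0.381 on SD). Among 10 regulators of transporter genes 4 fell on SD and 1 on HFD, where 2.94% and 1.66% of all genes fell. Besides Nr0b2, which fell on both diets, the SD falls were Ppara (-0.53, adjusted p = 0.0257), the gene of the xenobiotic receptor CAR, Nr1i3 (-0.76, adjusted p = 0.0396), and the FXR gene Nr1h4 (-0.46, adjusted p = 0.0483). Nr1h4 stood at 171 ± 5.16 CPM in libraries labelled SD knockout and 236 ± 16.6 CPM in SD controls, and at 167 ± 27.5 and 238 ± 28.9 CPM on HFD, where it did not pass (-0.51, adjusted p = 0.0515).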

How the data were processed

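Liver RNA of 12 samples was sequenced as 1 library each, prepared with the Ovation RNA-Seq System of Nugen per the labels' protocols. TopHat2 2.1.0, HTSeq and DESeq2 1.14.1 with build mm9 are named in the submitters' processing notes. No source used here gives the strand setting, the annotation or the handling of multiply mapped reads. The values that the authors deposited are raw counts, 1 whole number for each gene symbol, with no line for unassigned reads.

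The main test was edgeR 4.0.16 (limma 3.58.1, R 4.3.3), quasi-likelihood, on TMM-normalized counts after filterByExpr (minimum count 10), which left 12015 genes. All 12 libraries shared 1 dispersion fit with a mean for each of the 4 groups. P-values were two-sided and adjusted by Benjamini-Hochberg over all genes tested, and SE was derived from the test statistic. CPM values use TMM-normalized library sizes. The labels do not say in words that libraries come from different mice, so the p-values describe spread between libraries, which may be technical. Lengths, shared 50-base windows and overlaps came from GENCODE vM21 (GRCm38), and promoters from RefSeq GRCm38.p6. Because the authors' build differs, coordinates are given for the promoter windows only. Of 9 motif patterns searched, 4 are described, chosen after their matches were seen.

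The members, gene lists and tests were chosen with earlier results of these data known. Named genes are all members and, of each other list, up to 4 with the smallest p per knockout comparison, plus Nr5a2 and Nr0b2; not every gene so picked is described. The 2 nearest genes by profile (mean CPM of at least 5, pseudocount 2 CPM) are named for members that passed. Alternatives were DESeq2 1.42.0, RLE or total-count scaling, testing without the low-count filter, fitting each pair of groups by itself, thinning to the smallest library (2371167 counts), the replicate number as a block, and each library left out. Where 1 HFD library labelled knockout is left out, the remaining 1 borrows its spread from the other groups. Scripts were tested on simulated counts.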

Additional observations from a re-analysis of the deposited data

How the results depend on the processing

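Under the 13 alternatives and left-out libraries of each knockout comparison, the calls of Abcb4 and Slc10a1 held on both diets and those of Abcb11, Abcc2 and Abcc3 on SD. The number of transporters that passed was 5 to 6 of 10 on SD and 2 to 7 on HFD with 1 library left out, 0 to 1 for the difference between diets, 1 to 2 between diets in controls and 1 to 3 between diets in libraries labelled knockout. On HFD this number was 2 when just the HFD groups were fitted and 3 after thinning to the smallest library. Between diets in controls it was 3 with no filter on low counts, 2 with only the groups compared, 2 after thinning and 3 with the replicate block. Over all genes, 220 to 498 passed on SD and 85 to 602 on HFD with 1 library left out, and on HFD 518 with no filter, 213 after thinning and 127 when just the HFD groups were fitted. The median log2 fold change of all genes was 0.091 with total-count scaling and 0 with TMM on SD, and -0.102 and -0.011 for the difference between diets. The cause of these shifts was not tested.

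Changes of sign were confined, among the settings run, to values that did not pass. With total-count scaling they were Atp8b1 on SD (0.038), the diet difference of Abcb4 (-0.05) and Atp8b1 between diets in libraries labelled knockout (-0.064). Without the filter Abcb11 between diets in libraries labelled knockout became 0.027, and after thinning it was 0.028, with 0.001 for the diet difference of Slco1b2 and -0.062 for Abcb1b between diets in controls. With 1 library left out, log2 fold changes ran from -0.16 to 0.003 for Atp8b1 on SD, -0.066 to 0.361 for Abcc4 on SD and -0.43 to 0.24 for Abcc4 on HFD. Diet differences ran from -0.038 to 0.136 for Abcb4, -0.62 to 0.10 for Abcc4 and -0.27 to 0.19 for Slco1b2. Between diets in controls they ran from -0.077 to 0.711 for Abcb1b, -0.22 to 0.10 for Slc10a1 and -0.19 to 0.073 for Slco1b2. Between diets in libraries labelled knockout they ran from -0.084 to 0.074 for Abcb11, -0.14 to 0.17 for Atp8b1, -0.23 to 0.60 for Abcc3 and -0.31 to 0.15 for Slco1b2.

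Whether libraries with the same number were paired was not settled. The correlations of their deviations were 0.0766, 0.0897 and -0.0285 on SD and 0.15 and 0.0284 on HFD. Between libraries with different numbers they ran from -0.101 to 0.025 on SD and from -0.15 to 0.15 on HFD. The 2 libraries labelled HFD knockout have opposite deviations from their mean, so the HFD values cannot decide the pairing. With the replicate block 6 transporters passed on SD and 5 on HFD, and 595 and 227 genes in all. On HFD the block ended the call of Abcc2 (adjusted p = 0.0608) and Abcb11 passed (0.0499), and the signs of the diet difference of Abcb4 and of Atp8b1 between diets in libraries labelled knockout turned (-0.001 each). At 2371167 to 3404570 counts per SD library, low genes such as Abcb1b rest on 1 to 48 counts there.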
